A study of Homo sapiens with 15 samples.

Results

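The keratins and the transcription factor that separate the luminal from the basal layer of prostate epithelium are described here by their chromatin loops: KRT8, KRT18 and KRT19 on the luminal side, and KRT5, KRT14 and TP63 on the basal side. A loop belonged to a gene where at least one of its 1 kb anchors overlapped the promoter, taken as the start of the canonical transcript with 2.5 kb to each side, and each pair of anchors was counted once. By this rule 110 of the 505995 different loops belonged to the 6 genes. All 110 were at the promoters of KRT8 and KRT18. The promoters of KRT19, KRT5, KRT14 and TP63 had none.

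HiChIP was the assay. It ligates DNA ends that are neighbours in fixed nuclei, pulls down the ligated fragments bearing a given histone mark by an antibody, and sequences both ends of each as a read pair. The 2 marks were H3K27ac, typical of active enhancers and promoters, and H3K4me3, typical of active promoters. The cells were LNCaP, an established line of androgen-responsive prostate cancer cells, held for 3 days without phenol red in 10% charcoal-stripped serum, which is depleted of steroids, and then given ethanol vehicle (0 m) or the androgen dihydrotestosterone (DHT) at 10 nM, with harvests at 30 m and at 4, 16 and 72 h. For each time point 2 samples were labelled for H3K27ac and 1 for H3K4me3, 15 in all, of the same cell line throughout. The tables give 1 value for each loop in a mark at a time point. The sources used here do not state whether both H3K27ac samples entered it. Replicate error is therefore unknown and no test between time points was possible. The value is a contact frequency in relative units. It is the number of read pairs that join both 5 kb bins of a loop, scaled by the authors among the 5 time points of a mark. Where 5 values are listed in time order, they run from 0 m through 30 m, then 4 and 16 h, to 72 h. Each 95% interval below is exact for the recovered read pairs and covers counting error only.

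Keratins are the intermediate filament proteins of epithelial cells, built from one type I and one type II partner. KRT8 (type II) and KRT18 (type I) form the filament of simple and luminal epithelia, and KRT19 is a small type I keratin of the same epithelia. KRT5 (type II) and KRT14 (type I) form the filament of basal cells of stratified epithelia, and TP63 encodes p63, a transcription factor needed to form and keep basal cells. In pathology the loss of basal cells, read from p63 and basal keratins, is a sign of prostate cancer, while luminal keratins remain.

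KRT8 (ENSG00000170421) starts at position 53298860 of chromosome 12 on the minus strand of GRCh37 (hg19). KRT18 (ENSG00000111057) starts at 53342902 on the plus strand, 44.042 kb upstream of the KRT8 start, and longer KRT8 transcripts begin inside KRT18. KRT5 (ENSG00000186081) lies on the same chromosome at 52914178 on the minus strand in the type II keratin cluster. KRT19 (ENSG00000171345, 39684560) and KRT14 (ENSG00000186847, 39743147) lie on the minus strand of chromosome 17 in the type I cluster. TP63 (ENSG00000073282) starts at 189349178 of chromosome 3 on the plus strand. A stretch of 170 bases before the start is shown for KRT5 and TP63, as examples of members without loops. Both were read from GRCh37. Capitals mark 4 searched motifs on either strand: the TATA box letters TATAAA, the GC box letters GGGCGG, the CCAAT box letters CCAAT, and GATC, the cut site of MboI, the enzyme with which the chromatin was digested. For KRT5 the stretch ends 136 bases before the canonical start, since another KRT5 transcript begins there.
KRT5, chr12:52914315-52914484, minus strand: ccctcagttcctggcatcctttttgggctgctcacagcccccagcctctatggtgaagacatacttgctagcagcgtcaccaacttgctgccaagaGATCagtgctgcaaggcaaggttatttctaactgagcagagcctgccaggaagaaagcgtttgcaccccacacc
TP63, chr3:189349008-189349177, plus strand: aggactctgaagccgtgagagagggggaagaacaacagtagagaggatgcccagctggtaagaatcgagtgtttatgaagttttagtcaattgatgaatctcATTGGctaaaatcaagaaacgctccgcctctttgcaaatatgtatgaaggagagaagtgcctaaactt

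CCAAT stood in the TP63 stretch, as its reverse complement, and in 28% of the 19868 coding promoters in the stretch chosen by the same rule. GATC stood in the KRT5 stretch and in 23.8% of all promoters. Neither stretch held TATAAA, present in 6.77% of promoters, or GGGCGG, present in 51.8%. G and C made up 54.1% of the KRT5 stretch and 42.9% of that of TP63. The matches are letters only and were not tested for any bearing on loops.

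KRT8 had 43 loops and KRT18 had 68, where the median of the 16259 coding promoters with a loop was 20 and the quartiles were 6 and 38. Of those and the promoters without loops together, 83.1% had fewer loops than KRT8 and 94.9% fewer than KRT18. Having no loop was shared by 3610 of 19869 coding promoters, 18.2%, beside 4 of the 6 genes described here. A promoter without a loop is one at which no loop was called. It is not a measured contact of 0, because contacts outside the called loops were not part of the tables. A loop was called only where at least one bin held a peak of the mark, and the authors' caller merged interactions of nearby bins into one.

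None of the 4 promoters was far from an anchor. The nearest anchor lay 2823 bp from the KRT5 start, 3854 bp from KRT14, 6178 bp from TP63 and 6560 bp from KRT19. Within 10 kb of the start there were 16 loops at KRT19, 12 at KRT14, 3 at KRT5 and 1 at TP63. Most of those were weak. Near KRT19 the summed H3K27ac contact of the 16 loops was 14.1, 23.6, 24.1, 18.3 and 14.2 in time order, from 48 to 131 read pairs. Of the 16, 13 were called in the H3K27ac set, and H3K4me3 contact stayed between 4.44 and 8.89. Near KRT14 the 12 loops summed to between 7.05 and 12.7 in H3K27ac and between 5.47 and 7.33 in H3K4me3. The 3 loops near KRT5 rested on 1 to 7 H3K27ac and 1 to 20 H3K4me3 read pairs per time point. The single loop near TP63 rested on 0 to 5 and 0 to 2. All of these are too few to follow over time.

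Sites of the enzyme were counted in the start bins. The 5 kb bin that holds the start had 18 GATC sites at KRT19, 12 at KRT5, 11 at KRT14 and 8 at TP63, beside 12 at KRT8 and 16 at KRT18. All 210061 anchor bins had a median of 14, with 8 at the 5th and 21 at the 95th percentile, and TP63 lay at the 5th. Whether the number of sites had a part in the absence of loops was not tested. Loops also ran across the starts of these genes: 234 spanned that of KRT19, 231 KRT14, 202 KRT5 and 17 TP63. The KRT8 start was spanned by 155 and the KRT18 start by 82. The 155 take in the 9 loops of KRT8 toward higher coordinates, since its looped anchor lies downstream of its start. The KRT18 anchor holds the start, so its own loops are not among the 82. Counting every annotated start of a coding transcript, among them the start of the shorter (delta-N) p63 forms inside TP63, left all 4 genes at 0 loops.

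Most other keratin promoters had few loops as well. In the type II cluster with KRT18, 18 of 27 genes had a loop and the median was 1. In the type I cluster, 20 of 28 had one and the median was 2. These medians, and those of the lists below, take in genes without a loop. The median of 20 given above is over promoters with a loop only. KRT8 and KRT18 stood at the edge of their cluster with the highest counts, followed by KRT10 with 32, a keratin of the upper layers of skin in the type I cluster, and KRT83, a hair keratin, with 17. No other gene of either cluster had more than 8.

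**Figure D1:**
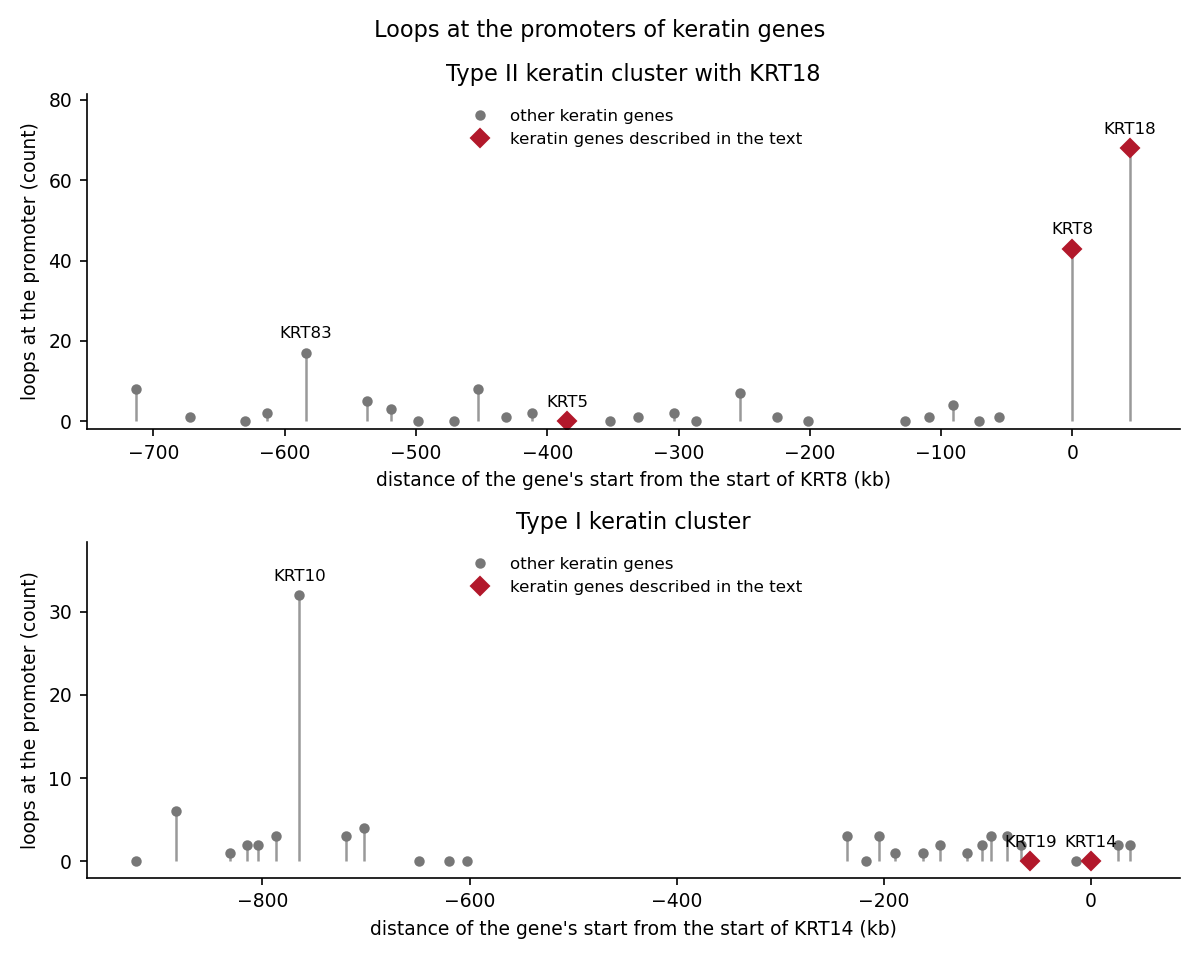
Number of loops at the promoter of each gene of the type II keratin cluster with KRT18 (upper panel, against the distance of its start from that of KRT8 in kb) and of the type I cluster (lower panel, against the distance from KRT14 in kb). KRT18 with 68 loops and KRT8 with 43 stand above the rest of their cluster, while KRT5, KRT14 and KRT19 are at 0.

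A loop was present at 81.8% of all coding promoters, against which the lists are read. By list, 5 of 7 simple-epithelial keratins had a loop, and the median was 4. Besides KRT8 and KRT18 these were KRT80 with 8 loops, KRT20 with 4 and KRT7 with 1, and KRT19 and KRT23 had none. Of 17 stratified and basal keratins 14 had one, with a median of 2. Of 18 genes of basal adhesion and p63 targets 16 had one, with a median of 11. The highest there was PERP, a p53 and p63 target of desmosomes, with 55. TRIM29 and DSG3 had none. All 12 annotated luminal junction and surface genes had a loop, with a median of 30, and CLDN4, a tight junction protein, was highest with 76. Markers of the labelled cells were read in the same way: all 8 luminal prostate markers had loops, with 7 at KLK2 the lowest, while 4 of 7 annotated markers of blood, endothelium and fibroblasts had any, with 17 at COL1A1 the highest and 0 at PTPRC, COL1A2 and DCN. With 81.8% of all promoters looped, these counts say little about the identity of the cells. Loops are counted at the promoter and do not measure expression.

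The KRT8 and KRT18 loops differed in the set in which they were called. Of the 43 at KRT8, 34 were called only with H3K4me3, 5 only with H3K27ac and 4 with both. Of the 68 at KRT18, 32 were called only with H3K4me3, 18 only with H3K27ac and 18 with both. The median length was 535 kb at KRT8, in a range of 5 to 925 kb, and 560 kb at KRT18, in a range of 5 to 1485 kb.

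By number, both promoters looped mainly to one side. Toward lower coordinates, where the type II keratin cluster lies, ran 34 loops of KRT8 and 59 of KRT18. These left a gap: 1 such loop of KRT8 was 25 kb long and the other 33 were 255 kb or longer, and 7 of KRT18 reached at most 70 kb while 52 were 295 kb or longer. Toward higher coordinates ran 9 loops from each. By contact the sides were otherwise: these 9 carried 87.7% of the H3K27ac and 80.5% of the H3K4me3 contact of KRT8, and 49.6% and 50.8% of that of KRT18. The long loops were many but weak. Loops of 100 kb or more were 37 of 43 at KRT8 and carried 15.2% of its H3K27ac and 22.6% of its H3K4me3 contact over the time course. At KRT18 they were 55 of 68 and carried 16.8% and 14.2%.

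**Figure D2:**
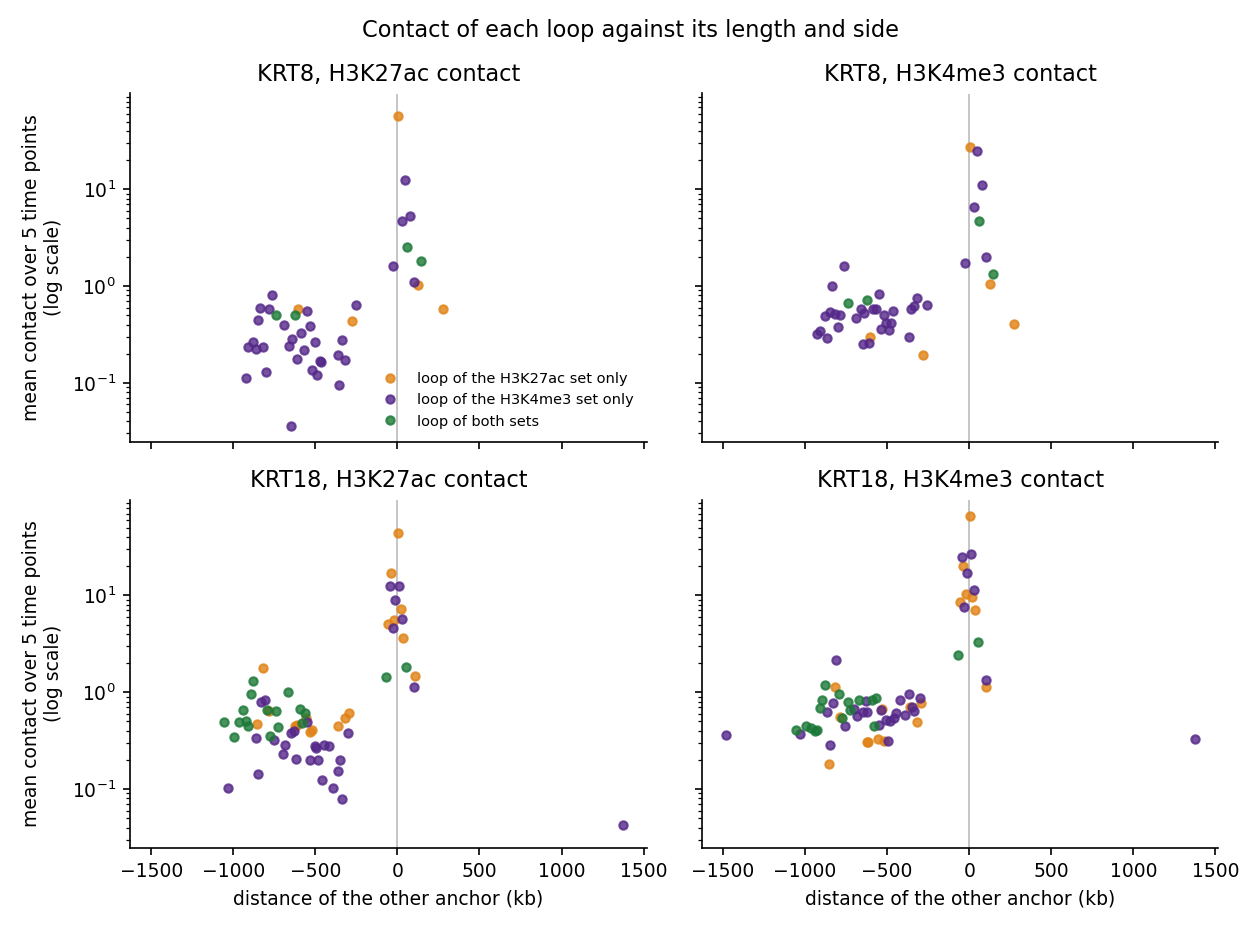
Mean contact over the 5 time points (log scale) of each loop of KRT8 (upper row) and KRT18 (lower row) in H3K27ac (left) and H3K4me3 (right), against the distance of the other anchor in kb, negative toward lower coordinates; each point is 1 loop, coloured by the set in which it was called. The strongest loop in each panel is 5 kb long, and most loops under 100 kb stand above the long ones, while that of KRT8 over 25 kb is close to the strongest of them; 1 KRT18 loop without any H3K27ac read pair is not drawn.

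Among the long loops, 22 of KRT8 and 33 of KRT18 ended inside the type II keratin cluster, between KRT80 and KRT78. They held 6.45% of the H3K27ac contact of KRT8 and 7.98% of that of KRT18, and in H3K4me3 11.0% and 8.03%. The strongest of them had a mean contact of 0.636 (H3K27ac) and 0.824 (H3K4me3) at KRT8, and of 1.001 and 0.949 at KRT18, so that each rested on a few read pairs per time point. Some ended on keratin promoters, and these are named after their values were seen: KRT81, KRT83, KRT84 and KRT85 for KRT8, and KRT2, KRT6B, KRT72, KRT80, KRT83, KRT84 and KRT85 for KRT18. None ended on the KRT5 promoter. Summed over the cluster, the log2 change of KRT8 at 16 h was 0.78 in H3K27ac (−0.10 to 1.72, from 16 read pairs at 0 m and 38 at 16 h), and that of KRT18 was −0.59 (−1.21 to 0.02, 49 and 45 read pairs). Both intervals hold 0.

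The promoters of KRT8 and KRT18 had 27 looped anchors in common, 62.8% of those of KRT8 and 39.7% of those of KRT18. A single loop of 45 kb joined both promoters directly. It ran from the anchor at chr12:53297001-53298000, inside KRT8 downstream of its start, to that at chr12:53342001-53343000, which holds the KRT18 start. It was called in the H3K4me3 set and not in the H3K27ac set. Its H3K4me3 contact was 25.9, 25.3, 19.4, 36.7 and 17.3 in time order. Its H3K27ac contact was 11.2, 12.4, 11.5, 15.1 and 12.4. Over the time course this loop exceeded 99.975% of 7988 loops of 45 kb in H3K4me3 and 99.6% in H3K27ac, whose medians were 0.887 and 1.12. Against 0 m its log2 change in H3K4me3 was 0.50 at 16 h (0.13 to 0.88), −0.42 at 4 h (−0.77 to −0.06) and −0.58 at 72 h (−1.07 to −0.11). Of 1134 loops of 45 kb with at least 20 H3K4me3 read pairs per time point on average, 84.3%, 11.8% and 24.6% had a lower change at these times. Their medians were −0.004, 0.17 and −0.22. In H3K27ac all 4 intervals of the joining loop held 0, the value at 16 h being 0.43 (−0.16 to 1.04).

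The strongest loop of each promoter ended in the neighbouring bin. At KRT8 it was a loop of 5 kb to chr12:53302001-53303000, an intron of the longer KRT8 transcripts whose centre lies 3.64 kb upstream of the canonical start. It was called in the H3K27ac set. Its H3K27ac contact was 35.6, 57.2, 42.3, 86.6 and 62.4 in time order. The value was lowest at 0 m and highest at 16 h. Its share of all H3K27ac contact of KRT8 went from 48.8% at 0 m to 65% at 16 h. The log2 change at 16 h was 1.28 (0.99 to 1.59), above that of 83.6% of the 16800 loops of 5 kb with at least 20 read pairs per time point on average, whose median was 0.56. In H3K4me3 the same loop had 30.2, 23.9, 32.6, 30.5 and 19.0, and its log2 change at 16 h was 0.02 (−0.35 to 0.39). KRT18 also reached this anchor, over 40 kb. There the H3K27ac contact was 14.99, 21.8, 18.8, 16.1 and 14.2 and the log2 change at 16 h was 0.11 (−0.42 to 0.65), while in H3K4me3 it was 0.67 (0.24 to 1.101).

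At KRT18 the strongest loop led 5 kb downstream to chr12:53347001-53348000, an intergenic anchor centred 0.81 kb beyond the end of the gene. It held a mean of 44.5 in H3K27ac and 67.0 in H3K4me3, above 97.6% and 99.2% of loops of that length. In H3K4me3 it stood at 62.9, 67.0, 66.3, 92.0 and 46.7 in time order. In H3K27ac the values were 34.7, 43.5, 41.0, 52.4 and 50.8, and the change at 16 h, 0.60 on the log2 scale (0.27 to 0.93), was above that of 52.1% of loops of 5 kb. In both marks this loop was highest at 16 h as deposited. In H3K27ac the intervals at 16 h (46.1 to 59.4) and 72 h (43.9 to 58.5) overlapped. At 72 h its H3K27ac change was above that of 57.4% of loops of 5 kb.

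The other 5 of the 6 strongest loops of KRT18 in H3K27ac did not move alike at 16 h. Those over 40 and 45 kb were described above, and that of 20 kb to chr12:53362001-53363000 went from 5.58 at 0 m to 9.34 at 16 h, a log2 change of 0.74 (−0.06 to 1.60). The remaining pair were lower. Its loop of 15 kb to an intron of the longer KRT8 transcripts at chr12:53327001-53328000 went from 10.9 at 0 m to 4.88 at 16 h, a log2 change of −1.15 (−1.97 to −0.37), and 1.55% of loops of 15 kb of like depth had a lower one. Its loop of 10 kb to the intergenic anchor at chr12:53352001-53353000 went from 16.2 to 10.2, a change of −0.67 (−1.25 to −0.08). In H3K4me3 the loops of 15 and 10 kb stood at 18.3 and 20.9, and at 26.2 and 33.1, with changes of 0.19 (−0.27 to 0.65) and 0.33 (−0.04 to 0.71). KRT8 reached the far anchor of the 15 kb loop as well, over 30 kb, with H3K27ac contact of 5.88 at 0 m and 4.25 at 16 h.

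**Figure D3:**
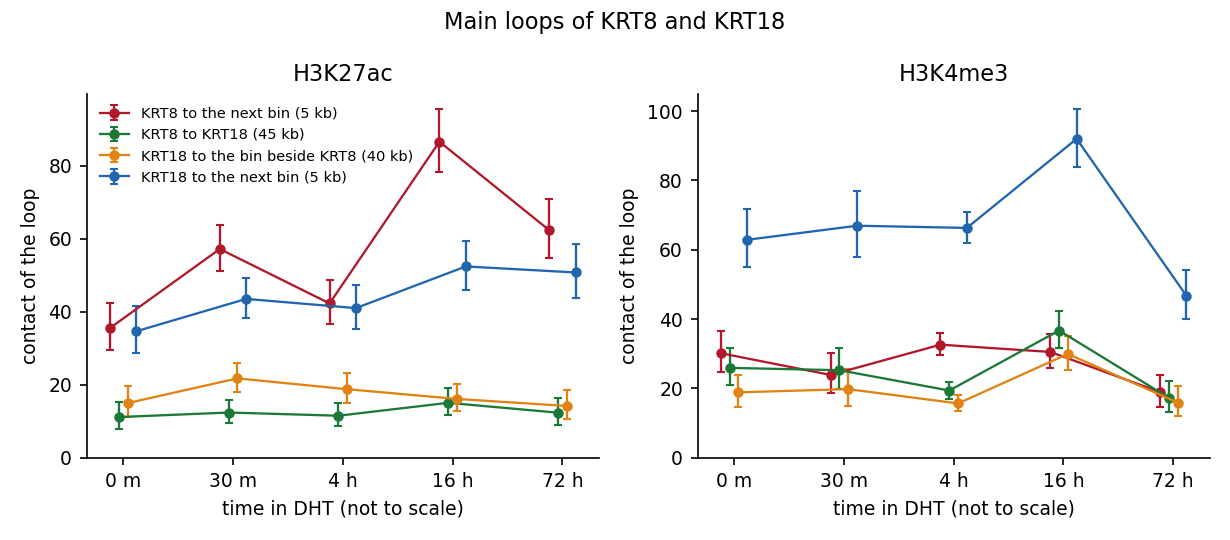
Contact of 4 loops of KRT8 and KRT18 at each time point (not to scale) in H3K27ac (left) and H3K4me3 (right), with exact 95% intervals for counting error. In H3K27ac the 5 kb loop of KRT8 rises from 35.6 at 0 m to 86.6 at 16 h; in H3K4me3 the 5 kb loop of KRT18 is highest at 16 h with 92.0.

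Summed over its loops, KRT8 had an H3K27ac contact of 72.9 (64.1 to 82.5), 102 (93.6 to 111), 82.5, 133 (123 to 144) and 102 in time order. All 4 values under DHT were above that at 0 m, and that at 16 h was highest. KRT18 had 150, 166, 163, 154 and 153, and all its intervals overlapped. In H3K4me3 KRT8 had 97.0, 93.3, 94.2, 123 and 83.8, and KRT18 had 255, 245, 236, 316 and 211. Both were highest at 16 h and lowest at 72 h in that mark as deposited. With read pairs scaled to equal totals both were still highest at 16 h but lowest at 4 h. The log2 change from 0 m was then −0.27 at KRT8 and −0.33 at KRT18, against −0.08 and −0.14 at 72 h. Averaged over the time points, KRT18 lay above 98.1% of the promoters with a loop in H3K27ac and 98.8% in H3K4me3, and KRT8 above 93.2% and 79.8%. A sum grows with the number of loops, which was set by calling on all time points merged.

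**Figure D4:**
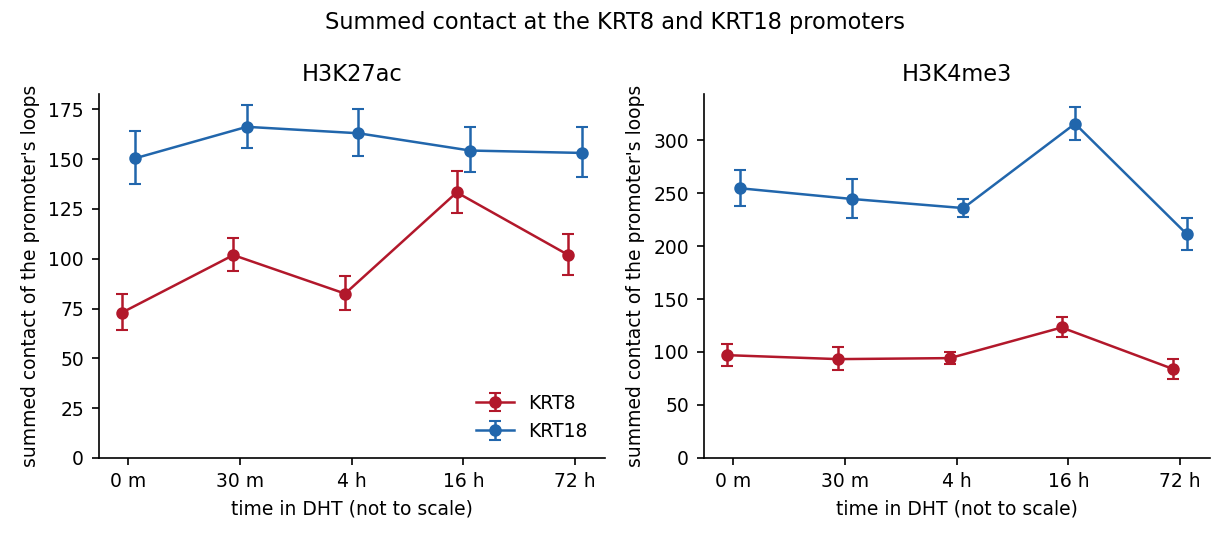
Summed contact of the 43 loops of KRT8 and the 68 of KRT18 at each time point (not to scale), in H3K27ac (left) and H3K4me3 (right), with exact 95% intervals for counting error. In H3K27ac KRT8 rises from 72.9 to 133 at 16 h while KRT18 lies between 150 and 166; in H3K4me3 both are highest at 16 h.

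Relative to 0 m, the log2 change of KRT8 in H3K27ac was 0.48 at 30 m (0.27 to 0.70), 0.18 at 4 h (−0.06 to 0.41), 0.87 at 16 h (0.66 to 1.09) and 0.48 at 72 h (0.25 to 0.72). The change at 16 h, 1.83-fold, was above that of 93.2% of the 12449 coding promoters with at least 20 H3K27ac read pairs per time point on average. It was the only value of KRT8 or KRT18 past 1.5-fold over both marks and all time points. Of these promoters 17.9% were higher by at least 1.5-fold at 16 h and 9.51% lower, and their median was 0.13. Higher by that fold in H3K27ac were 18.7% at 30 m, 4.3% at 4 h and 17.6% at 72 h, and lower were 3.61%, 1.37% and 7.05%. With read pairs scaled to equal totals in place of the deposited scaling, 7.7% were higher and 19% lower at 16 h. The change of KRT8 was then 0.62 (0.41 to 0.84). At the other time points equal totals gave 12.3% (30 m), 2.98% (4 h) and 9.21% (72 h) higher. Lower were 5.14%, 2.06% and 12.1%, so at 72 h, as at 16 h, more promoters were lower than higher. At 16 h 48.6% of the 16800 loops of 5 kb described above were higher by at least 1.5-fold in H3K27ac. With the deposited scaling but without its own 5 kb loop, KRT8 changed by 0.32 (0.002 to 0.65) at 16 h. The value of KRT8 thus rested largely on this single loop. The 37 loops of 100 kb or more, which hold little of the contact, were higher as well: their summed H3K27ac contact went from 9.11 at 0 m (31 read pairs) to 18.9 at 16 h (89 read pairs), a log2 change of 1.05 (0.45 to 1.69), and the change was 0.97 at 30 m (0.37 to 1.60) and 0.72 at 72 h (0.06 to 1.40). The 55 such loops of KRT18 were at −0.26 at 16 h (−0.67 to 0.15). Without the 5 kb loop the summed changes of KRT8 at 30 m and 72 h became 0.26 (−0.06 to 0.58) and 0.08 (−0.27 to 0.43), and both intervals held 0. The median promoter was at 0.26 at 30 m and 0.16 at 72 h, above which KRT8 with all its loops lay by 0.22 and 0.32.

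The change of KRT18 in H3K27ac was 0.14 at 30 m (−0.01 to 0.30), 0.12 at 4 h (−0.05 to 0.28), 0.04 at 16 h (−0.13 to 0.20) and 0.03 at 72 h (−0.15 to 0.20). With equal totals the value at 16 h turned to −0.21 (−0.38 to −0.04), so no direction is given for it. The difference between both genes does not depend on that scaling. Leaving out the loop that joins them, the change of KRT8 exceeded that of KRT18 in H3K27ac by 0.94 at 16 h (0.65 to 1.23), 0.52 at 72 h (0.21 to 0.83) and 0.39 at 30 m (0.10 to 0.68), and by 0.08 at 4 h (−0.23 to 0.39). In H3K4me3 the difference was −0.00444 at 16 h (−0.26 to 0.26), and all 4 intervals held 0. The H3K27ac difference takes in the 5 kb loop of KRT8. Without the strongest loop of each gene, the H3K27ac changes at 16 h were 0.32 at KRT8 (0.002 to 0.65) and −0.18 at KRT18 (−0.38 to 0.01). They were 0.08 and −0.18 at 72 h, and 0.26 and 0.08 at 30 m. The joining loop is kept in these values, and no interval was computed for their differences.

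In H3K4me3 the change at 16 h was 0.34 at KRT8 (0.15 to 0.54) and 0.31 at KRT18 (0.19 to 0.43), above those of 82.2% and 78.5% of 13167 promoters. Neither reached 1.5-fold, which 4.75% of the promoters exceeded upward and 0.881% downward, with a median of 0.12. At the other time points 1.95% (30 m), 14.5% (4 h) and 2.76% (72 h) of promoters were higher by that fold in H3K4me3, and 2.76%, 2.59% and 6.62% were lower. With equal totals 1.67%, 5.64% and 4.45% were higher and 3.06%, 6.55% and 2.75% lower, so the balance turned at 4 and 72 h. As deposited, KRT18 was at −0.27 (−0.41 to −0.13) at 72 h and KRT8 at −0.21 (−0.44 to 0.02), where the median promoter was at −0.15. At 4 h KRT18 was at −0.11 (−0.22 to −0.001) and KRT8 at −0.04 (−0.22 to 0.13). The median promoter was then at 0.22, so that 17.3% of promoters had a lower change than KRT18. At 30 m both were at −0.06, with intervals that held 0.

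**Figure D5:**
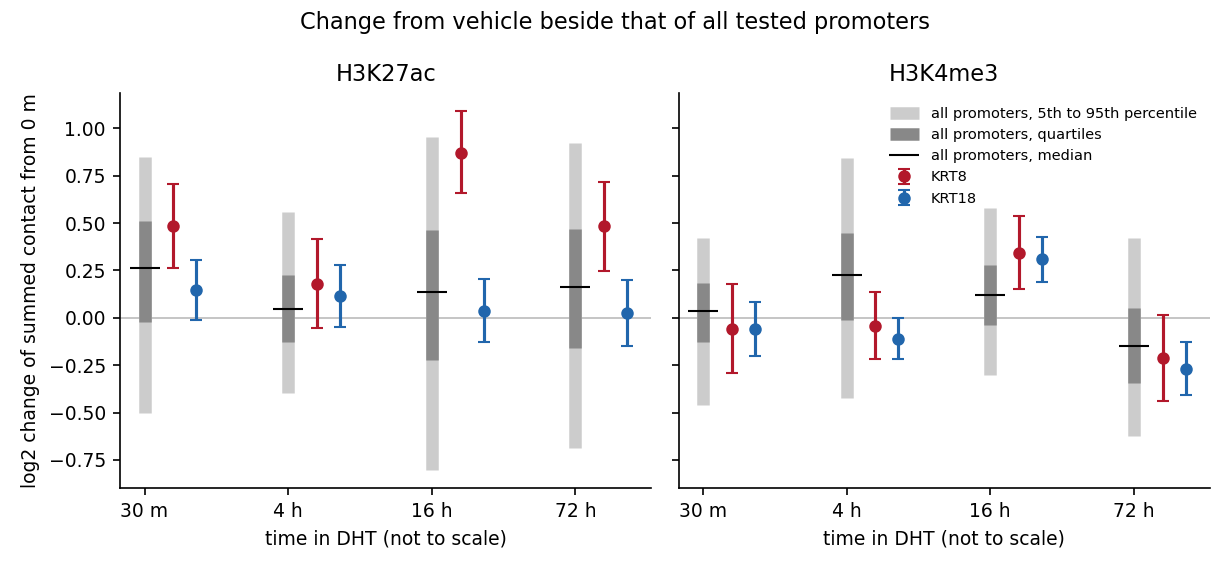
Log2 change of summed contact from 0 m at each time point (not to scale) for KRT8 and KRT18 with exact 95% intervals for counting error, beside the median, quartiles and 5th to 95th percentiles of all promoters with at least 20 read pairs per time point. In H3K27ac at 16 h KRT8 is at 0.87 and KRT18 at 0.04, near the median of 0.13; in H3K4me3 both are close together.

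The other genes of each kind were read against the same background at 16 h, where 17.9% of all promoters were higher and 9.51% lower by 1.5-fold in H3K27ac, and 4.75% and 0.881% in H3K4me3. In H3K27ac 2 of 4 simple-epithelial keratins with enough read pairs were past 1.5-fold, both higher. They were KRT8 and KRT20, an intestinal keratin, at 1.34 from 4 loops with 16 read pairs at 0 m. Of 4 stratified keratins none was past that fold. Among 11 basal adhesion and p63 target genes 4 were higher and the Notch ligand JAG2 was lower (−0.75). The integrin subunit ITGB4 was at 1.26, from 4 loops with 16 read pairs at 0 m. The others that were higher were the desmosomal cadherin DSC3 (0.75), the laminin chain LAMA3 (0.66) and the cell cycle inhibitor SFN (0.62). The median of the 11 genes was 0.52. Among 12 luminal junction and surface genes 5 were higher and none lower, with a median of 0.49. Those higher included the adhesion protein CDH1 (1.14), the epithelial transcription factor ELF3 (0.90), CLDN4 (0.84) and the claudin CLDN3 (0.61). In H3K4me3 DSC3 was higher (0.61) among 12 basal genes and CLDN7 lower (−0.70) among 11 luminal ones, and neither of 2 simple-epithelial and none of 3 stratified keratins passed. Of the 8 luminal prostate markers 6 were higher in H3K4me3, with a median of 0.88 against 0.12 for all promoters, and 2 in H3K27ac, with a median of 0.56. At 72 h the lists read otherwise in H3K27ac, where 17.6% of all promoters were higher. There 3 of the 4 stratified keratins were higher by 1.5-fold, named after their values were seen: KRT2 at 1.096 (0.47 to 1.75), KRT10 at 0.68 (0.33 to 1.05) and KRT6B at 0.63 (−0.17 to 1.46, from 22 and 38 read pairs). All H3K27ac loops together were 0.17 higher at 72 h in the deposited scaling. KRT10 and KRT6B passed the log2 cut of 0.58 by less than this, and KRT2 by more. With equal totals 9.21% of all promoters were higher, and the lists were not recounted. As deposited, the simple-epithelial keratins had 1 of 4 higher at that time and the luminal junction and surface genes 3 of 12. The basal adhesion and p63 target genes had 5 of 11 higher and 1 lower, JAG2 at −1.05. Of the 8 luminal prostate markers none was higher and KLK3 was lower (−0.79), with a median of −0.09 against 0.16 for all promoters. Lower by that fold were 7.05% of all promoters. At 16 h the medians of the basal and of the luminal list in H3K27ac both lay above the 0.13 of all promoters. No difference between the lists was tested, and the values of single genes have counting error only.

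Over the 8 changes from 0 m, 4 in each mark, the promoters most like KRT8 were MGAT1, an enzyme of N-glycan synthesis, NBEAL2 and CCDC12, with root mean square differences of 0.0823, 0.111 and 0.116, among 12171 candidates with a median of 0.427. Those most like KRT18 included KMT2A, a histone methyltransferase, and SAYSD1, at 0.0579 and 0.0888, with a median of 0.349 over 12169. KRT8 and KRT18 differed from each other by 0.359, close to the median candidate of KRT18 though they share a loop.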

How the data were processed

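HiChIP of H3K27ac (10 samples, 2 per time point) and H3K4me3 (5 samples) in LNCaP was taken as labelled. The authors trimmed reads with Trim Galore 0.5.0, aligned them to hg19 with HiC-Pro 3.1.0 (Bowtie2), ran FitHiChIP on 5 kb bins, for distances from 5 kb to 3 Mb, on the merged reads of all time points of a mark, and read contacts with Cooler. The 10 deposited tables list the same 574817 loops (296326 from H3K27ac, then 278491 from H3K4me3, with 505995 different pairs) with a contact signal that the authors scaled among time points by TMM. Of all values in each file, 100% were whole multiples of the smallest (within a relative tolerance of a millionth of a step), so read pairs were recovered by division. Read pairs in loops numbered 2475168 to 4308555 in H3K27ac, at a median of 2 to 3 per loop, and 2153262 to 10675614 in H3K4me3, at a median of 1 to 7. The design named no test, since there is 1 value per mark and time point; a count test was not run for that reason.

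Promoters came from Gencode release 44 on GRCh37. Log2 changes are ratios of summed contact, with Clopper-Pearson intervals; sums have Garwood and differences of changes have conditional exact intervals, all at 95%. A promoter was compared where its mark had a mean of at least 20 read pairs per time point, and calls need 1.5-fold. The members, gene lists and rules were chosen with earlier results of these data known. Of lists, genes were named where highest or lowest, or past 1.5-fold at 16 h; the 3 most alike promoters share no loop with the gene. CD24 and PECAM1 were not analysed here. Some genes and promoter sequences are not reported here. The script was tested on simulated data. Python 3.11.15, numpy 2.4.6, pandas 2.3.3, scipy 1.17.1 and matplotlib 3.10.9 were used.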

Additional observations from a re-analysis of the deposited data

Results flagged for a closer look

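KRT18 moved in opposite directions at 2 time points of DHT in H3K4me3. Its summed contact was higher than at 0 m at 16 h, by 0.31 on the log2 scale (0.19 to 0.43), and lower at 72 h, at −0.27 (−0.41 to −0.13). Both intervals leave out 0 and cover counting error only. With 1 sample per time point the difference between 16 h and 72 h was not tested. The median of all tested promoters moved the same way, from 0.12 to −0.15. Relative to it the value at 72 h was −0.12 (−0.26 to 0.02), which holds 0, and that at 16 h was 0.19 (0.07 to 0.31).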

How the results depend on the processing

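The 26 results were recomputed in 254 alternative values, of which 204 stayed within the interval of the reported value (or 1.5 times a count), and the others moved outside it. In 22 the sign differed from that reported: 2 of these concern the joint H3K27ac change given next, and the others changes of KRT8 or KRT18 whose reported interval held 0. The 110 loops of KRT8 and KRT18 became 45 in the H3K27ac set alone, and the basal promoters had 4 loops in place of 0 with the whole 5 kb bin (3 at KRT14 and 1 at KRT5, on 2 to 8 and 1 to 3 H3K27ac read pairs per time point). The joint H3K27ac change of KRT8 and KRT18 at 16 h, 0.36, depended on 2 loops: it turned to −0.088 (−0.26 to 0.086) without the strongest loop of each promoter. In the H3K4me3 set alone it turned to −0.20 (−0.41 to 0.02), and both intervals hold 0. The change was 0.67 in the H3K27ac set alone. With loops of at least 20 kb it was 0.044 (−0.14 to 0.23) and with equal totals 0.11 (−0.02 to 0.25), intervals that hold 0. Relative to the median promoter, a setting added after the data were seen, it was 0.23. The joint H3K4me3 change of 0.30 was 0.17 with equal totals and 0.18 relative to the median promoter. Relative to the median, H3K4me3 at 4 h was at −0.33 for KRT18 and −0.27 for KRT8 (−0.44 to −0.09, which leaves out 0), and KRT18 at 72 h was at −0.12 (−0.26 to 0.02), which holds 0. With all coding starts KRT8 takes in the KRT18 start and has 134 loops and a change of 0.31 at 16 h in H3K27ac. With the whole 5 kb bin KRT8 has 64 loops, and that change is 0.61 (0.44 to 0.79).

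A ratio of luminal to basal contact and a basal change have no value, since the basal promoters had no loop under the rule or any alternative but the whole bin. No paired analysis was possible because each mark and time point had 1 deposited value, and for the same reason no replicate was left out. Depth limits the long loops, most of which held a few read pairs.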
